A study of Bos taurus with 6 samples.

Results

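Translation initiation and elongation factors were followed in bovine cumulus cells, the somatic cells around the oocyte, through every array probe whose platform symbol starts with EIF or EEF. The 4 probes of the eIF2 alpha kinases EIF2AK1 to EIF2AK4 were left out. The rule gave 86 probes for 56 symbols, of 43794 gene probes on the array. They comprised 13 probes for eIF2 and eIF2B, 18 for eIF3, 22 for eIF4, 14 for elongation factors, 16 for other initiation factors and 3 for symbols of the EIF2C series. The EIF2C symbols are older names of Argonaute genes, which act in gene silencing by small RNAs, so they match the rule by spelling only. Their values are described apart, but they stay in the counts over all members.

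Cetrorelix-treated cells were set against untreated control cells of Holstein dairy cows, on 2-colour arrays that each held both conditions. All 6 cows received follicle-stimulating hormone (FSH) for 3 days, and cells of both conditions were recovered 68 h after FSH was withdrawn. The treated condition also had cetrorelix at 12 mg per day for 5 days, starting on day 2 of FSH. Cetrorelix blocks the receptor of gonadotropin-releasing hormone and so lowers luteinizing hormone (LH). The labels name it an agonist, but it is known as an antagonist. Each condition had 3 biological replicates, hybridised on arrays with swapped dyes. The array titles do not repeat a number, so the arrays of the 2 dye orientations were paired by their order. The 2 arrays of a pair counted as 1 replicate. No label ties a replicate to particular cows, so the p-values measure the spread between these samples. The RNA was amplified before labelling, and no LH level was used here.

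Protein synthesis starts when eIF2, a trimer that carries the initiator tRNA in its GTP-bound form, joins the small ribosomal subunit together with eIF3, the largest initiation complex. eIF2B is the exchange factor that reloads eIF2 with GTP, and phosphorylation of eIF2 alpha blocks it. The eIF4 group binds the mRNA cap, unwinds the leader and bridges the cap to eIF3, and the 4E-binding proteins hold eIF4E back when mTORC1 signalling is low. During elongation eEF1A delivers aminoacyl-tRNA, the eEF1B complex recharges it, and eEF2 moves the ribosome along the mRNA. Many mRNAs of elongation factors and of ribosomal proteins are known in mammals to be controlled at translation, which an RNA array does not read.

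A probe entered the test when its raw intensity passed the 95th percentile of the array's negative controls on 3 or more arrays, counted for either condition. Of the 86 probes 77 were tested, and they gave 52 genes, each read from its brightest tested probe, among 12400 tested genes. These 52, called factor genes below, include 2 Argonaute genes under EIF2C symbols. All ratios are log2 values of cetrorelix over control, each error is the SD of the 3 replicates (n = 3), and adjusted p is limma's after Benjamini-Hochberg adjustment over 32125 tested probes. The factors were bright: 44 of the 52 genes (84.6%) were above background in both channels of all 6 arrays, against 48.7% of all tested genes. No spot of a member was saturated. Below, the Cy5 slide is the one whose cetrorelix RNA carried Cy5, and the Cy3 slide the one whose cetrorelix RNA carried Cy3. The share of gene probes above background lay between 40.8% and 70.9% in the cetrorelix channel and between 54.8% and 69.6% in the control channel. It was lower for cetrorelix RNA on the Cy5 slide (40.8% to 54.0%) than on the Cy3 slide (69.3% to 70.9%). Each slide held the 3 arrays of a single dye orientation, so slide and dye cannot be told apart. The 2 arrays of replicate 3 agreed least: across all tested genes their ratios correlated at r = 0.03, against 0.25 for replicate 1 and 0.43 for replicate 2. Across the 52 factor genes these values were 0.06, 0.33 and 0.63, as a description over genes that share their arrays. The SD of log2 ratios over tested probes was 0.32 on the replicate 3 array of the Cy5 slide and on the replicate 1 array of the Cy3 slide. On the other arrays it lay between 0.51 and 0.66. In replicate 1 the dim gene EIF5A2 had log2 intensities of 9.32 and 9.35 on the Cy3 slide, against 7.34 and 7.41 on the Cy5 slide. How far these narrow arrays account for small ratios and SDs of dim genes was not tested.

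No translation factor passed the test at adjusted p under 0.05, and the lowest adjusted p among them was 0.0833, that of EIF3B. By limma 4 of all tested probes passed, all of them higher (0.0125% of probes), and 1 of all tested genes (0.00806%). At an unadjusted p under 0.05, 8 factor genes lay higher after cetrorelix and 4 lower. These are 15.4% and 7.69% of the 52 genes, against 7.18% and 8.55% of all tested genes, which were dimmer as a set. With probes above background on all 6 arrays, 5 were higher and 2 lower of 46, where 19.2% of 7695 genes passed in either direction. With a gene's probes averaged, 4 were higher and 3 lower of 52, against 12.9% in either direction. The larger share of the factor genes was thus not kept in these settings. The shares by group below are set against the same dimmer genes. Over the 52 genes both directions were represented almost equally, with 25 genes above 0 and 27 below. The median log2 ratio was -0.01, as over all tested genes (-0.01). Without the 2 Argonaute genes, 25 lay above 0 and 25 below, with a median of 0. The shares at an unadjusted p under 0.05 were then 16% higher and 8% lower. The size of the ratios was also ordinary, with a median absolute log2 ratio of 0.17 against 0.15 over all tested genes. In these bulk samples a change in the share of a cell type and a change of RNA per cell cannot be told apart.

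**Figure D1:**
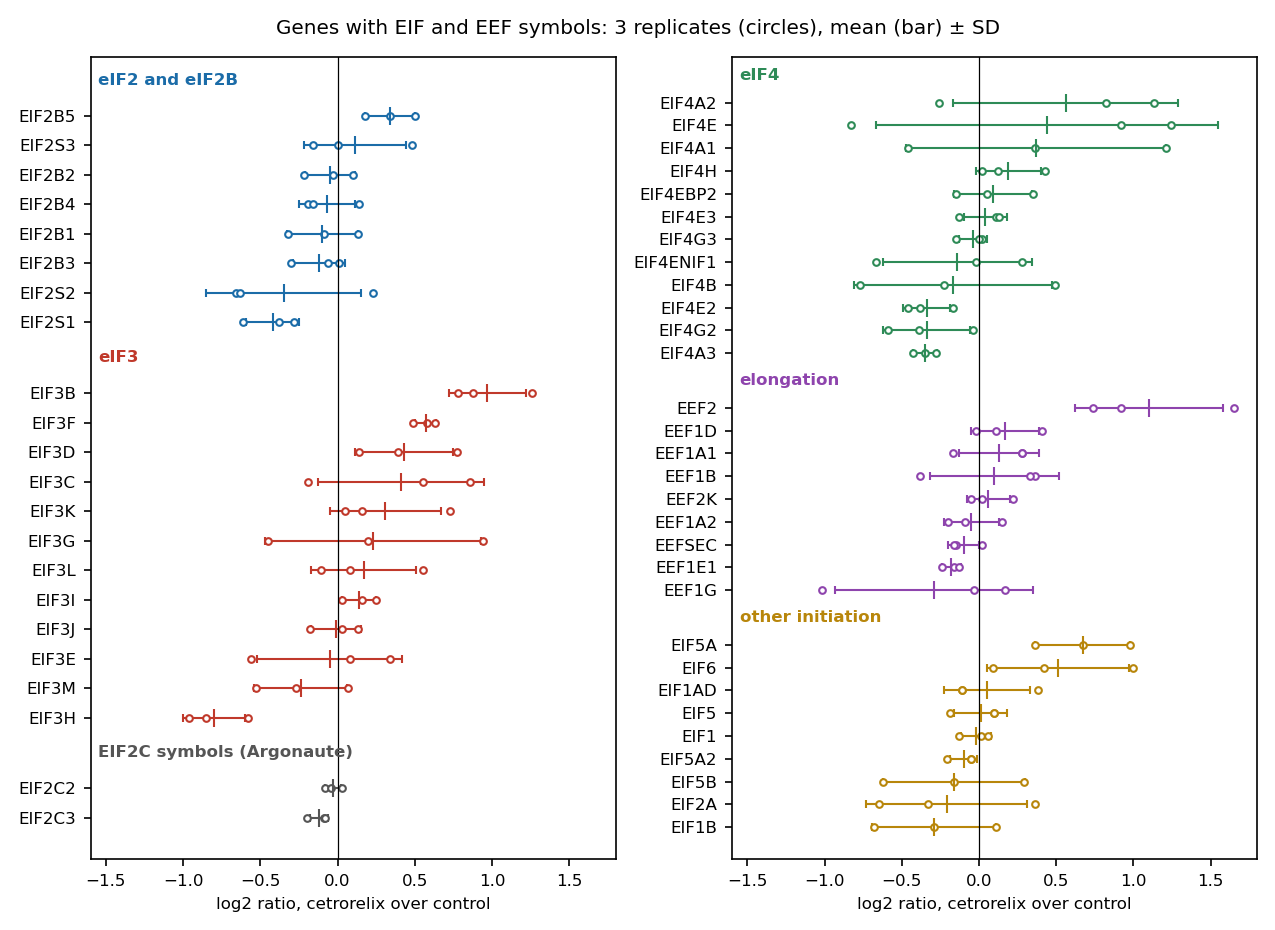
Log2 ratio of cetrorelix over control for the 52 tested genes, by group. Circles are the 3 replicates, the bar is their mean and the whiskers are 1 SD. EIF3B and EEF2 lie farthest to the right (0.97 and 1.10) and EIF3H farthest to the left (-0.80), while most genes lie near 0.

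With the replicate number as a replicate block over the 6 arrays, 3 factor genes passed: EIF3B, EEF2 and EIF3H. That fit called 156 of all tested genes (1.26%), of which 0.831% were higher and 0.427% lower. The correlation it estimated between the 2 arrays of a replicate was -0.03, so it weighed the 6 arrays almost as 6 separate samples. The 2 arrays of a replicate were taken to hold the same extracts, by the pairing in array order. With slide and replicate number both as blocks, EIF5A passed as well (adjusted p = 0.0352), and 3.85% of all tested genes did, 2.19% higher and 1.66% lower.

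The eIF3 complex held the most members with a low p, and they lay in both directions. Of its 12 tested genes 8 lay above 0 and 4 below. The median was 0.20, with replicate medians of 0.11, 0.44 and 0.14, against -0.03, -0.01 and 0.01 over all tested genes. At an unadjusted p under 0.05, 3 subunits were higher (EIF3B, EIF3F and EIF3D) and 1 was lower (EIF3H). These are 25.0% and 8.33% of the 12 genes, against 7.18% and 8.55% of all tested genes. The median stayed above 0 on each slide, at 0.20 on the Cy5 slide and 0.38 on the Cy3 slide, and was 0.08 when arrays were centred on their median in place of loess.

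EIF3B, a scaffold subunit in the core of eIF3, had log2 intensities of 10.93, 11.36 and 11.58 in cetrorelix cells against 10.35, 10.01 and 10.83 in control cells on the Cy5 slide (replicates 1, 2 and 3). On the other slide they were 11.88, 11.54 and 11.53 in cetrorelix cells against 10.69, 10.36 and 10.73 in controls. The cetrorelix channel was the brighter one on each of the 6 arrays. The mean log2 ratio was 0.97 ± 0.25, a 1.97-fold difference (adjusted p = 0.0833, and 0.0233 with the replicate block). Without replicate 1 the mean ratio was 1.02 (adjusted p = 0.437), without replicate 2 it was 0.83 (0.0100), and without replicate 3 it was 1.07 (0.0109). In these fits 0, 245 and 717 of the 12400 tested genes passed at adjusted p under 0.05.

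EIF3H, a subunit of the eIF3 octamer, ran the other way. Its log2 intensities were 11.81, 11.28 and 11.36 in cetrorelix cells against 12.12, 12.13 and 12.16 in control cells on the Cy5 slide. On the Cy3 slide they were 12.24, 11.66 and 11.93 in cetrorelix cells against 13.09, 12.73 and 12.82 in controls. The control channel was brighter on 6 of 6 arrays. The mean ratio was -0.80 ± 0.20 (adjusted p = 0.0958, and 0.0305 with the replicate block). Without replicates 1, 2 and 3 the mean ratio was -0.90, -0.71 and -0.77, with adjusted p of 0.440, 0.0409 and 0.0536.

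EIF3F, which pairs with EIF3H in human eIF3, had an even ratio on its brightest probe, at 0.61, 0.64 and 0.65 on the Cy5 slide and at 0.55, 0.33 and 0.60 on the Cy3 slide. The mean was 0.57 ± 0.07, with an adjusted p of 0.176. Its other 3 probes did not share this value: their means were 0.25, 0.05 and -0.40, and the mean over all 4 probes was 0.11. EIF3D, the subunit with cap-binding ability, lay at -0.30, 0.09 and 0.71 on the Cy5 slide and at 0.58, 0.69 and 0.83 on the Cy3 slide (mean 0.43 ± 0.32, adjusted p = 0.363). The ratio of EIF3D was thus positive on 5 of 6 arrays.

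The other eIF3 subunits did not reach an unadjusted p of 0.05. EIF3C lay at 0.41 ± 0.54 and its dimmer probe at 0.01. The gene table lists this symbol under EIF3CL, which in human is a near-identical copy of EIF3C, so signal of the 2 genes cannot be told apart. EIF3K lay at 0.31 ± 0.36, EIF3L at 0.17 ± 0.34 and EIF3I at 0.14 ± 0.11. EIF3J, which binds the complex loosely, lay at -0.01 ± 0.16, EIF3E at -0.05 ± 0.47 and EIF3M at -0.24 ± 0.30. EIF3G, an RNA-binding subunit, averaged 0.23 ± 0.70, and its slides stood far apart, at -0.82 on the Cy5 slide and 1.28 on the Cy3 slide. Its dimmer probe, above background in both channels of all 6 arrays, lay at -0.06 ± 0.25, with slide means of -0.04 and -0.08.

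**Figure D2:**
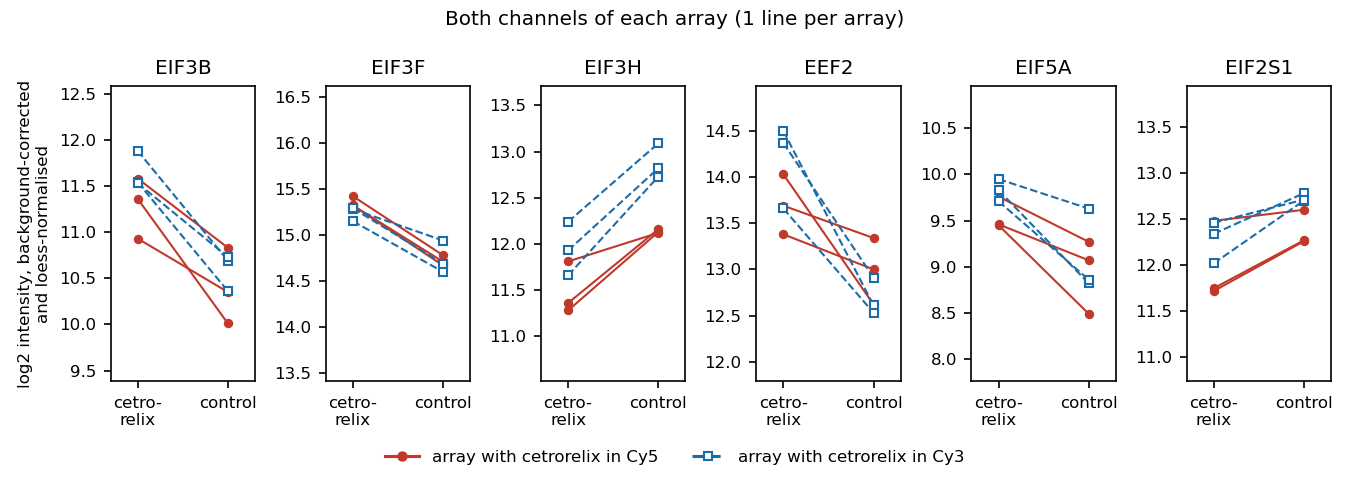
Log2 intensity of the cetrorelix and the control channel on each array for 6 genes, after background correction and loess. Lines join the channels of 1 array, and colours mark the dye orientation. Lines for EIF3B, EIF3F, EEF2 and EIF5A slope down towards the control on all 6 arrays, and those for EIF3H and EIF2S1 slope up.

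In the eIF2 and eIF2B group 2 of 8 genes lay above 0 and 6 below, with a median of -0.08. EIF2S1 encodes eIF2 alpha, the subunit phosphorylated under stress. It lay at -0.12, -0.54 and -0.52 on the Cy5 slide and at -0.44, -0.68 and -0.25 on the Cy3 slide. All 6 arrays were negative, and the mean was -0.42 ± 0.17 (adjusted p = 0.308). EIF2S2, the beta subunit, lay at -1.08, -1.14 and -0.43 on the Cy5 slide but at -0.24, -0.12 and 0.89 on the Cy3 slide (mean -0.35 ± 0.50, adjusted p = 0.609). EIF2S3, the gamma subunit that binds GTP and the initiator tRNA, had 0.75, 0.31 and 0.57 on the Cy5 slide and 0.22, -0.63 and -0.57 on the Cy3 slide (mean 0.11 ± 0.33, adjusted p = 0.925). Only the alpha subunit of the trimer therefore kept one sign on all 6 arrays.

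EIF2B5, the catalytic epsilon subunit of eIF2B, was the 1 member of this group higher at an unadjusted p under 0.05, and EIF2S1 the 1 lower (12.5% each, against 7.18% and 8.55% of all tested genes). It lay at 0.55, 0.05 and -0.12 on the Cy5 slide and at 0.44, 0.64 and 0.49 on the Cy3 slide (mean 0.34 ± 0.16, adjusted p = 0.434). Of its other 2 probes one averaged 0.47 ± 0.45 and the dimmest -0.09 ± 0.20. EIF2B3, the gamma subunit of eIF2B, lay at -0.01, 0.07 and 0.09 on the Cy5 slide and at 0.04, -0.19 and -0.70 on the Cy3 slide (mean -0.12 ± 0.17, adjusted p = 0.893). The regulatory subunits EIF2B1, EIF2B2 and EIF2B4 lay at -0.10 ± 0.23, -0.05 ± 0.16 and -0.07 ± 0.18.

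Of the 12 tested eIF4 genes 6 lay on each side of 0, and the median was 0.00. At an unadjusted p under 0.05, 1 was higher (EIF4A2) and 2 were lower (EIF4A3 and EIF4E2), which is 8.33% and 16.7%, against 7.18% and 8.55% of all tested genes. EIF4A3, a helicase of the exon junction complex despite its name, lay at -0.52, -0.50 and -0.50 on the Cy5 slide and at -0.04, -0.36 and -0.20 on the Cy3 slide. It was below 0 on all 6 arrays (mean -0.35 ± 0.08, adjusted p = 0.388). EIF4E2, a cap-binding protein that represses translation, lay at -0.70, -0.47 and -0.35 and at -0.22, 0.13 and -0.40 on the 2 slides (mean -0.34 ± 0.15, adjusted p = 0.441). Its 3 tested probes averaged between -0.34 and -0.30, but both dimmer probes were negative on every array of the Cy5 slide and positive on every array of the Cy3 slide.

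EIF4A2, a helicase of the cap-binding complex, averaged 0.56 ± 0.73 (adjusted p = 0.446). Its ratios were 1.98, 0.38 and 1.59 on the Cy5 slide and 0.28, -0.90 and 0.04 on the Cy3 slide, so its sign differed between the slide means (1.32 and -0.19). The mean was 0.28 without replicate 1 (adjusted p = 0.896), 0.97 without replicate 2 (adjusted p = 0.00215) and 0.44 without replicate 3 (adjusted p = 0.553). With the replicate block the unadjusted p from limma was 0.102, against 0.0490 as reported. EIF4G2, a relative of the scaffold eIF4G that serves cap-independent initiation, lay at 0.50, -0.24 and -0.19 on the Cy5 slide and at -0.57, -0.94 and -0.59 on the Cy3 slide (mean -0.34 ± 0.28, adjusted p = 0.500). The helicase cofactors EIF4B and EIF4H lay at -0.17 ± 0.64 and 0.19 ± 0.21. A further 4 members lay between -0.14 and 0.09: EIF4EBP2, a 4E-binding protein, at 0.09 ± 0.25, EIF4E3 at 0.04 ± 0.14, EIF4G3 at -0.04 ± 0.09 and the eIF4E transporter EIF4ENIF1 at -0.14 ± 0.48.

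EIF4E, the cap-binding protein itself, had the widest spread over replicates among the 52 genes. On its brightest probe replicate 1 lay at 1.39 and 1.08 on its 2 arrays, replicate 2 at 0.89 and 0.94, and replicate 3 at -1.01 and -0.65. The 2 dye orientations thus agreed within each replicate, while replicate 3 had the opposite sign. The next probe of the gene showed the same order, with 1.02 and 0.84 in replicate 1, 0.68 and 1.28 in replicate 2, and -0.49 and -0.64 in replicate 3. The dimmest probe, above background on 3 of 6 arrays in the cetrorelix channel and 4 of 6 in the control channel, did not show it and averaged -0.14 ± 0.21. The mean of the brightest probe was 0.44 ± 1.11 (adjusted p = 0.770). It was 0.04 without replicate 1 (adjusted p = 0.994), 0.20 without replicate 2 (adjusted p = 1) and 1.08 without replicate 3 (adjusted p = 0.0104). In the fit without replicate 3, 717 of all tested genes passed, and replicate 3 is singled out here after its values were seen.

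EIF4A1 and EEF1G also differed between replicates on both arrays. EIF4A1, the main helicase of the cap-binding complex, was chosen after its values were seen. It lay at 0.30 and 0.42 in replicate 1, at 1.15 and 1.28 in replicate 2 and at -0.87 and -0.04 in replicate 3 (mean 0.37 ± 0.84, adjusted p = 0.750). EEF1G, the gamma subunit of eEF1B, lay at -1.13 and -0.92 in replicate 1, but at 0.13 and 0.21 in replicate 2 and at -0.10 and 0.04 in replicate 3. Its mean was -0.29 ± 0.64 (adjusted p = 0.773). Over the 52 factor genes the median SD between replicates was 0.25, close to 0.26 over all tested genes.

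**Figure D3:**
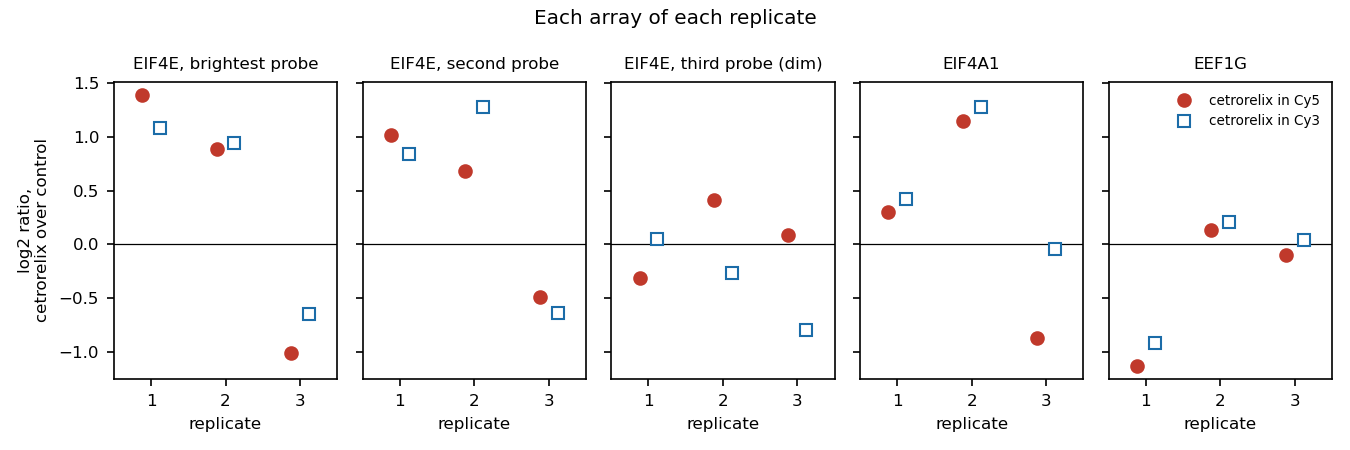
Log2 ratio of cetrorelix over control on each array, by replicate, for the 3 tested probes of EIF4E and for EIF4A1 and EEF1G. Circles are arrays of the Cy5 slide and squares arrays of the Cy3 slide. For both brighter EIF4E probes replicates 1 and 2 lie above 0 and replicate 3 below 0 with either dye.

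Among the 9 tested elongation genes EEF2 stood apart in size. EEF2 is the GTPase that moves the ribosome forward. Its log2 intensities were 13.38, 14.03 and 13.69 in cetrorelix cells against 13.00, 12.62 and 13.34 in control cells on the Cy5 slide. On the Cy3 slide they were 14.37, 14.50 and 13.66 in cetrorelix cells against 12.91, 12.61 and 12.53 in controls. The cetrorelix channel was brighter on 6 of 6 arrays. The mean ratio of 1.10 ± 0.48 was a 2.15-fold difference (adjusted p = 0.0856, and 0.0446 with the replicate block). Without replicates 1, 2 and 3 the mean ratio was 1.19, 0.83 and 1.28, with adjusted p of 0.469, 0.0101 and 0.00516. In these fits 0, 245 and 717 of all tested genes passed. The dimmer EEF2 probe was also positive on all 6 arrays, at 0.67, 1.12 and 0.15 on the Cy5 slide and 0.11, 0.57 and 0.48 on the Cy3 slide, with a mean of 0.52 ± 0.29.

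No other elongation gene had an unadjusted p under 0.05. The median of the elongation group was 0.06, with 5 genes above 0 and 4 below, and its sign changed with the processing (-0.05 when a gene was read from its averaged probes). EEF1A1, the main carrier of aminoacyl-tRNA, had 0.24, 0.18 and -0.45 on the Cy5 slide and 0.32, 0.38 and 0.11 on the Cy3 slide (mean 0.13 ± 0.26, adjusted p = 0.886). Its dimmer probe averaged -0.32 ± 0.34. EEF1D, the delta subunit of eEF1B, had 0.52, 0.84 and 0.52 on the Cy5 slide but -0.30, -0.01 and -0.55 on the Cy3 slide (mean 0.17 ± 0.22, adjusted p = 0.821). EEF1B, the older symbol of EEF1B2, the exchange subunit, lay at 0.10 ± 0.42.

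EEF1E1, a small protein of the multi-synthetase complex, was slightly negative on all 6 arrays by its brightest probe. That probe lay at -0.16, -0.05 and -0.12 and at -0.33, -0.27 and -0.13 (mean -0.18 ± 0.06, adjusted p = 0.783). The dimmer tested probe averaged -0.22 ± 0.50 and was positive on 2 arrays and negative on 4. EEF1A2, the form found mainly in muscle and neurons, was dim and lay at -0.05 ± 0.18. EEF2K, the kinase that inactivates eEF2, was dim as well and lay at 0.06 ± 0.14. The selenocysteine factor EEFSEC lay at -0.10 ± 0.10, above background on 3 of 6 arrays in the cetrorelix channel and 4 of 6 in the control channel.

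Of the 9 other tested initiation factors 4 lay above 0 and 5 below, and 2 were higher at an unadjusted p under 0.05 (22.2%, against 7.18% of all tested genes). EIF5A, which relieves stalled ribosomes and carries the modified residue hypusine, lay at 0.39, 0.96 and 0.49 on the Cy5 slide and at 0.32, 1.00 and 0.85 on the Cy3 slide. All 6 arrays were positive, the mean was 0.67 ± 0.31, and the adjusted p was 0.176. Its dimmer probe lay at 0.03 ± 0.22, and the mean of both was 0.35. EIF6, which keeps the large ribosomal subunit from joining too early, had 0.81, -0.10 and -0.28 on the Cy5 slide and 1.19, 0.95 and 0.46 on the Cy3 slide (mean 0.51 ± 0.46, adjusted p = 0.351). The dimmer EIF6 probe lay at 0.03 ± 0.04, so the probes of both genes differed.

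EIF1B, a close relative of the start-codon factor EIF1, had -0.35, -0.36 and 0.85 on the Cy5 slide and -0.22, -1.0 and -0.64 on the Cy3 slide (mean -0.29 ± 0.40, adjusted p = 0.674). EIF2A, a single-chain factor unrelated to the eIF2 trimer, had -0.44, -0.78 and 0.34 on the Cy5 slide and -0.22, -0.52 and 0.39 on the Cy3 slide (mean -0.21 ± 0.52, adjusted p = 0.843). Its replicate 3 was positive on both arrays and its other replicates negative. EIF1 itself was close to 0 on every array by its brightest probe, between -0.23 and 0.15 (mean -0.02 ± 0.10). Its dimmer probe ranged more widely, from -0.34 to 0.52 (mean 0.04 ± 0.35). EIF5, which triggers GTP hydrolysis by eIF2, lay at 0.01 ± 0.17 and its dimmer probes at -0.21 ± 0.55 and 0.10 ± 0.33. EIF5B, the subunit-joining GTPase, lay at -0.16 ± 0.46, EIF1AD at 0.05 ± 0.28 and EIF5A2 at -0.10 ± 0.09. The dimmer EIF1AD probe had the other sign, at -0.40 ± 0.15 (limma, unadjusted p = 0.0229, adjusted p = 0.330). That probe was above background on 2 of 6 arrays in the cetrorelix channel and 6 of 6 in the control channel.

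Of the 52 genes 4 were positive on all 6 arrays (EIF3B, EIF3F, EEF2 and EIF5A), which is 7.69% against 4.01% of all tested genes. A further 6 were negative on all 6 arrays (11.5%, against 5.75% of all tested genes). These were EIF3H, EIF2S1, EIF4A3, EEF1E1, EIF5A2 and EIF2C3. EIF5A2 was above background on 2 of 6 arrays in the cetrorelix channel and 4 of 6 in the control channel, so it entered the test only through the channel in which it was brighter. EIF2C3 was above background on 3 of 6 arrays in the cetrorelix channel and 6 of 6 in the control channel. Nothing is read from this count.

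Where a factor had several tested probes they often differed. Of 18 such genes 8 had probes on both sides of 0, and the median span between the lowest and the highest probe was 0.36. EIF3F had the widest span (0.97), followed by EIF5A (0.64) and EIF4E (0.59). EIF3B and EIF3H have 1 probe each, so their ratios could not be compared between probes.

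The slides differed beyond the spread of the replicates for 7 of the 52 genes (13.5%) at adjusted p under 0.05, close to 12.7% of all tested genes. For 1 of the 52, EEF1D, all arrays of one slide had the opposite sign to all of the other (1.92%, against 8.91% of all tested genes). The 7 genes were EIF2S2, EIF2S3, EIF3E, EIF3G, EIF4A2, EEF1D and EEF2. For EEF2 both slide means were positive, at 0.71 on the Cy5 slide and 1.49 on the Cy3 slide. EIF3B (0.89 and 1.06), EIF3H (-0.66 and -0.94), EIF3F (0.64 and 0.49), EIF5A (0.61 and 0.73) and EIF2S1 (-0.39 and -0.45) had values of one sign on both slides. EIF3E, another subunit of the eIF3 octamer, had 0.43 and -0.52, which cancelled in its mean.

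**Figure D4:**
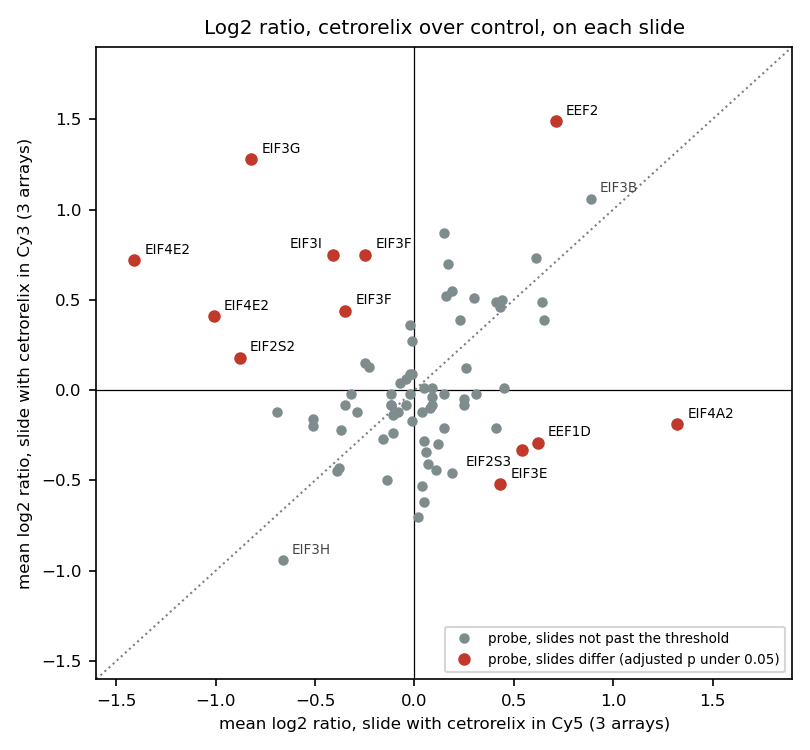
Mean log2 ratio of cetrorelix over control on the Cy5 slide (horizontal, 3 arrays) and on the Cy3 slide (vertical, 3 arrays) for the 77 tested probes. Red points are the 12 probes whose slides differed at adjusted p under 0.05, and the dotted line marks equal values. EIF3B, EIF3H and EEF2 lie in quadrants where both slides share a sign, while EIF3G and EIF4E2 lie far off the line.

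Both Argonaute genes tested under EIF2C symbols lay close to 0, EIF2C3 (now AGO3) at -0.12 ± 0.06 and EIF2C2 (now AGO2) at -0.03 ± 0.05. Of the 86 probes 9 were not tested because they were too dim. They include both probes of EIF4E1B, known as an oocyte form of eIF4E, which were above background on 2 and 1 of 6 arrays in the cetrorelix channel and on 2 and 0 in the control channel. Both probes of EIF4EBP1, the best-known 4E-binding protein, were above background on 2 arrays in the cetrorelix channel and 1 in the control channel. The single probes of EIF1AY and EIF2C1 were also dim, so 4 of the 56 symbols have no tested probe. For EIF3A, EIF4G1, EIF1AX and EIF4EBP3 no probe of that symbol was used here.

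Regulators and partners of translation outside the EIF and EEF symbols were read the same way. Of 42 genes looked for, 35 were tested, with a median of -0.03. At an unadjusted p under 0.05, 1 was higher and 3 were lower, where 7.18% and 8.55% of all tested genes were, and 0 passed after adjustment (limma, lowest adjusted p = 0.210). DPH6, which makes the diphthamide residue of eEF2, was negative on 6 of 6 arrays, at -0.65, -0.74 and -0.11 and at -0.44, -1.28 and -0.51 (mean -0.62 ± 0.36, adjusted p = 0.210). EIF2AK3, the endoplasmic reticulum kinase of eIF2 alpha, lay at -0.57 ± 0.35 (adjusted p = 0.231), below 0 on 5 of 6 arrays. PPP1R15A, which directs a phosphatase to eIF2 alpha, lay at 0.53 ± 0.32 (adjusted p = 0.254), above 0 on 5 of 6 arrays. PAIP1, a partner of the poly(A)-binding protein, lay at -0.46 ± 0.29 (adjusted p = 0.314), the recycling factor ABCE1 at -0.32 ± 0.22 (adjusted p = 0.502), and DDIT4, an inhibitor of mTORC1, at -0.62 ± 0.96 (adjusted p = 0.520).

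Granulosa and cumulus markers were present: 12 of 14 were above background in both channels of all 6 arrays, among them the FSH receptor FSHR and aromatase CYP19A1. In that list 3 were higher at an unadjusted p under 0.05 (AMH, INHA and GATA4) and 0 lower, where 7.18% and 8.55% of all tested genes were. The list had a median of 0.05 and ran from -0.37 (FSHR) to 1.43 (AMH), with CYP19A1 at -0.24 ± 0.66. Of 10 oocyte markers 5 were bright enough to be tested (KPNA7, FIGLA, ZP3, BMP15 and DDX4), while ZP4 and GDF9 were above background on no array. FIGLA was above it on 5 of 6 arrays in the cetrorelix channel and 6 of 6 in the control channel. Of the 10, 1 was above background in all channels, KPNA7. Leukocyte markers gave 2 of 9, endothelial markers 0 of 9, theca and stromal markers 4 of 10 and erythrocyte markers 3 of 6. No marker of these other cell types had an unadjusted p under 0.05 except ACTA2 of the stromal list (0.48 ± 0.16). The slides differed for ACTA2, with -0.37, -0.12 and 0.17 on the Cy5 slide and 1.22, 1.43 and 0.52 on the Cy3 slide. Its part in the values above was not tested.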

How the data were processed

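Per the file headers, each scanner table gives a spot's median intensity and its local background intensity at both lasers, uncorrected. The authors also deposited log2 ratios per array. Limma is named in the submitters' processing notes without version or settings. Set against the ratios below, these log2 values gave r between 0.842 and 0.996 on the 6 arrays, so they run as cetrorelix over control, with column medians of -0.03 to 0.01. The sources used here do not give the centring of the deposited ratios. The lowest r, 0.842 and 0.887, belonged to the 2 arrays with the smallest SD of log2 ratios.

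Here, spots marked to be ignored were set to missing. Background was corrected by normexp (offset 50), ratios were normalised by loess within arrays with control spots at weight 0, and the 2 arrays of a replicate were averaged. Means were tested against 0 with limma 3.58.1 (R 4.3.3, two-sided). The fit was tested on simulated data. Arrays have no read depth, and their number limits the precision. The filter kept 32325 probes, of which 200 with an ignored spot were left out. Of 43794 probes 21790 had 1 platform symbol and 22004 none, and the symbol of 1524 probes was updated through a synonym. No coordinates or sequences were used.

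Same-numbered arrays of the 2 slides deviated together (r = 0.229, 0.402 and 0.422 across probes), and the series' design text gives them as dye swaps. Genes given with array values were the 4 of lowest p in each group plus a fixed list of core factors. The members and lists were chosen with earlier results of these data known. Alternatives covered background, normalisation, filter, probe choice, blocks, slides and left-out replicates.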

Additional observations from a re-analysis of the deposited data

Results flagged for a closer look

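The ratio of 12 tested probes differed between the slides, by limma on the 3 within-replicate differences (Cy5 slide minus Cy3 slide) at adjusted p under 0.05 over all tested probes. That is 12 of 77 probes, where 11.9% of all tested probes did. Slide and dye cannot be told apart. The largest differences were those of a dimmer EIF4E2 probe at -2.13 (adjusted p = 9.54e-14), EIF3G at -2.10 (2.01e-13), EIF4A2 at 1.51 (6.98e-07) and the other dimmer EIF4E2 probe at -1.42 (3.56e-06). The dimmer EIF3I probe differed by -1.17, EIF2S2 by -1.06, 2 dimmer EIF3F probes by -1.0 and -0.79, EIF3E by 0.95, EEF1D by 0.91, EIF2S3 by 0.87 and EEF2 by -0.78, with adjusted p between 2.85e-04 and 0.0320. For 5 of these probes every array of one slide had the opposite sign to every array of the other. They were both dimmer EIF4E2 probes, the dimmer EIF3I probe, 1 EIF3F probe and EEF1D.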

How the results depend on the processing

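Of 23 named genes 13 kept their direction under all 15 alternatives, EIF3B, EIF3H, EEF2, EIF3F and EIF5A among them. The count of factor genes past adjusted p was 0 as reported, 3 with the replicate block, 4 with slide and replicate as blocks (all tested probes: 234 and 768), 2 with a normexp offset of 10 (246 probes), 1 on the Cy5 slide (516) and 5 on the Cy3 slide (1134). Without single replicates it ranged from 0 to 4 (0 to 1254 probes). All tested probes past it numbered 0 after scaling between arrays, 9 with the authors' deposited log2 ratios and 7 with no filter. The 8 factor genes higher at unadjusted p became 4 under median centring, 5 after scaling, 5 with probes above background on all arrays, 4 with a gene's probes averaged, and 5 to 8 without single replicates. The 4 lower became 6 under median centring, so 4 higher stood beside 6 lower there. The lower count became 2 with the offset of 10 and 2 with the stricter filter. Of all tested genes 15.7% had an unadjusted p under 0.05 in either direction as reported. This share was 16.9% under median centring, 10.5% after scaling, 15.1% with the offset of 10 and 12.9% with probes averaged. With the stricter filter it was 19.2% of 7695 genes, 46 of them factor genes. Without single replicates it ranged from 10.5% to 19.9%. The elongation median became -0.12 on the Cy3 slide and -0.05 with probes averaged. Median centring moved the share of higher probes among those of unadjusted p under 0.05 to 33.6%, against 47.6%. Directions turned on the Cy3 slide for EIF2S2 (0.18), EIF4A2 (-0.19), EEF1D (-0.29) and EIF2S3 (-0.33), and on the other slide for EIF2B3 (0.05), EIF4G2 (0.02), EIF1B (0.05) and EEF1A1 (-0.01). EEF1D was -0.01 after scaling, EIF2S3 -0.04 under median centring, and EEF1A1 -0.02 by the authors' deposited log2 ratios and -0.09 over all probes. Without single replicates EEF1G ranged from -0.53 to 0.07, EIF2A from -0.49 to 0.02 and EIF2S3 from -0.08 to 0.24. The causes were not tested.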

Other observations

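Among genes outside the rule whose current symbol starts with EIF or EEF, EEF1AKMT3, a lysine methyltransferase of eEF1A listed on the platform as FAM119B, lay at -0.52 ± 0.21 (SD, n = 3, limma adjusted p = 0.227) and below 0 on 5 of 6 arrays. EEF1AKMT1, another methyltransferase of eEF1A listed as N6AMT2, lay at 0.24 ± 0.17 (adjusted p = 0.679), above 0 on 5 of 6 arrays. EIF2D, a tRNA-delivering factor listed as LGTN, lay at -0.06 ± 0.21 (adjusted p = 0.962).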
